A study of Mus musculus with 24 samples.

Results

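The 10 genes described here, Fasn, Scd1, Scd2, Thrsp, Acaca, Acly, Elovl6, Me1, Pnpla3 and Srebf1, serve de novo lipogenesis, the synthesis of fatty acids from smaller molecules. They are 10 of the 30116 genes with a count in the kidneys of this study, and all 10 are among the 12780 genes that had enough counts to be tested. The genes were taken by symbol and were selected on earlier results of these same kidneys, in which Scd1, Fasn and Thrsp were among the genes that set the kidneys apart most along the first principal component. Their levels, differences and correlations are therefore given as a description, and the p-values printed with them are no independent support.

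The kidneys came from male C57BL/6J wild-type mice, 8 to 11 weeks old at surgery. Myocardial infarction (MI) was induced by tying off the left anterior descending artery of the heart for good, and sham mice had the same operation without the ligation. All mice received isoflurane and buprenorphine. Sham kidneys were taken 5d after surgery and MI kidneys 5d or 28d after it, so the sham kidneys are the controls for both times, and at 28d post-MI the time since surgery and the age differ from sham as well. RNA from snap-frozen kidney was sequenced by MACE, which reads the 3′ end of each mRNA and removes copies made by amplification with molecular identifiers. Of 24 kidneys, 22 were used (8 sham, 8 of the 5d group and 6 of the 28d group). In the deposited counts 2 columns share a name, and 5d post-MI replicate 4 and 28d post-MI replicate 5 could not be assigned a column.

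In de novo lipogenesis, citrate exported from the mitochondrion is split into acetyl-CoA by ATP citrate lyase (Acly), acetyl-CoA carboxylase (Acaca) turns this into malonyl-CoA, and fatty acid synthase (Fasn) builds palmitate from both, using NADPH that comes in part from malic enzyme (Me1). Palmitate is lengthened by the elongase Elovl6 and desaturated by the stearoyl-CoA desaturases Scd1 and Scd2. Srebf1 codes for the transcription factor SREBP-1, through which insulin and feeding raise most of these genes, and Thrsp and Pnpla3 are lipogenic and lipid droplet genes that follow the same signals. The pathway is best known from liver and from adipose tissue, which also surrounds the kidney and lies in its sinus.

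Total counts were between 2280618 and 3786275 per kidney. Summed over 10 kidney marker genes, expression was between 7717 and 8984 counts per 1000000 (CPM, scaled to each kidney's TMM-normalised library size) in all 22 kidneys, although Slc5a2, the glucose transporter of the proximal tubule, was at or near 0 throughout. The kidneys also held RNA of other tissues. The sum of 8 adrenal cortex markers was 1048 CPM in sham replicate 2, 827 CPM in sham replicate 6 and 99.9 CPM in 5d post-MI replicate 5, and at most 10.5 CPM in the other kidneys, with the zona glomerulosa marker Cyp11b2 at 0 in every kidney. The sum of 8 white adipocyte markers, among them adiponectin (Adipoq) and perilipin (Plin1), ranged from 266 to 1214 CPM in sham kidneys, from 111 to 964 CPM at 5d post-MI and from 247 to 723 CPM at 28d post-MI. The 7 brown adipocyte markers summed to 78.2 to 476 CPM in sham kidneys, 58.9 to 358 CPM at 5d and 71.2 to 159 CPM at 28d post-MI, and the 5 red blood cell markers to 2200 to 4124, 4968 to 19090 and 1795 to 5122 CPM. Haemoglobin sums of every 5d post-MI kidney thus lay above every sham kidney.

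Expression of all 10 lipogenesis genes was estimated lower than in sham at both times, and for none of them did the difference pass the test. In edgeR's quasi-likelihood test with adjustment over all 12780 genes, 0 of 10 members were called at 5d, where 0.0704% of all genes were called, and 0 of 10 at 28d, where 0.0235% were called. DESeq2 and limma's voom, fitted with the same 3 groups, also called 0 of 10 at each time. At an unadjusted p under 0.05, 9 of 10 members were lower at 5d and 7 of 10 at 28d, beside 7.9% of all genes at 5d (3.97% lower) and 8.68% at 28d (4.23% lower). Since the genes were selected with these data known, nothing is read from those shares. The members' median log2 fold change was −0.86 at 5d and −0.96 at 28d, while the median over all tested genes was 0.000176 and −0.00121.

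The enzyme at the centre of the pathway is Fasn (ENSMUSG00000025153, GRCm38 chromosome 11, 120805846 to 120824547, minus strand). Its level was between 148 and 1042 CPM in the 8 sham kidneys with a median of 493, between 71.5 and 472 CPM at 5d with a median of 253, and between 135 and 285 CPM at 28d with a median of 177.5. All 6 kidneys at 28d and 6 of 8 at 5d lay below 7 of the 8 sham kidneys, and at 28d the groups overlapped through sham replicate 8, the lowest sham kidney at 148 CPM. The mean was 533 ± 261 CPM in sham kidneys (SD, n = 8), 246 ± 166 CPM at 5d (SD, n = 8) and 196 ± 62.0 CPM at 28d (SD, n = 6). The log2 fold change was −1.11 ± 0.42 (SE; adjusted p = 0.503) at 5d and −1.44 ± 0.47 (SE; adjusted p = 0.361) at 28d. DESeq2 fitted to sham and 28d kidneys alone, a fit added after the data had been seen, called the latter (adjusted p = 0.00829).

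Acaca (ENSMUSG00000020532, chromosome 11, 84129672 to 84401651, plus strand), whose product makes the malonyl-CoA that Fasn uses, ranged from 23.3 to 149 CPM in sham kidneys (median 68.6), from 15.5 to 69.1 CPM at 5d (median 37.4) and from 27.3 to 48.8 CPM at 28d (median 33.0). Every 28d kidney and 7 of 8 at 5d were below all sham kidneys other than replicate 8. Against sham, the log2 fold change was −0.97 ± 0.33 (adjusted p = 0.444) at 5d and −1.06 ± 0.37 (adjusted p = 0.391) at 28d. Acly (ENSMUSG00000020917, chromosome 11, 100476353 to 100528000, minus strand), the source of cytosolic acetyl-CoA, had a narrower spread, 101 to 320 CPM in sham kidneys (median 191), 81.8 to 178 CPM at 5d (median 107) and 92.6 to 163 CPM at 28d (median 117). Acly had the lowest unadjusted p of the members at 5d, 0.00189 in edgeR, with a log2 fold change of −0.74 ± 0.21 (adjusted p = 0.307), and at 28d the log2 fold change was −0.72 ± 0.23 (adjusted p = 0.335).

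Me1 (ENSMUSG00000032418, chromosome 9, 86581371 to 86695953, minus strand), which yields NADPH, had a narrower spread than Fasn, Acaca and Acly in every group, and its 28d estimate was near 0. Sham kidneys spanned 349 to 435 CPM (median 392), kidneys at 5d 204 to 398 CPM (median 325) and kidneys at 28d 345 to 401 CPM (median 383.5). At 5d, 6 of 8 kidneys were below every sham kidney, whereas at 28d 1 of 6 was. The log2 fold change was −0.29 ± 0.10 (adjusted p = 0.444) at 5d and −0.04 ± 0.11 (adjusted p = 0.965) at 28d. Tested between the times, Me1 was higher at 28d than at 5d by a log2 of 0.26 ± 0.11, which did not pass (adjusted p = 0.457).

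**Figure D1:**
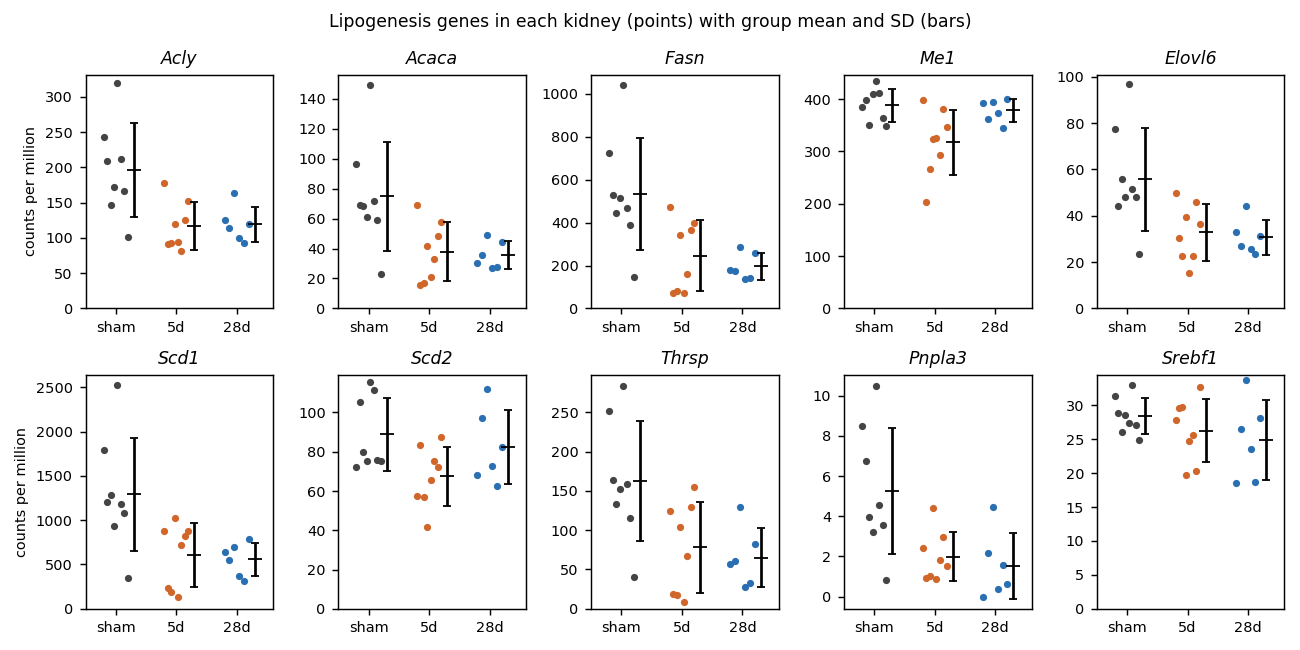
CPM (y axis, 1 scale per gene) of the 10 lipogenesis genes in sham kidneys and at 5d and 28d post-MI; each point is 1 kidney and the bar gives the group mean ± SD (n = 8, 8 and 6). For Fasn, Scd1, Acaca and Elovl6 all 28d kidneys lie at or below the second lowest sham kidney, while the groups overlap widely for Scd2, Srebf1 and, at 28d, Me1.

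Among the enzymes that act on palmitate, Scd1 (ENSMUSG00000037071, chromosome 19, 44394455 to 44407879, minus strand) ranged over 352 to 2521 CPM in sham kidneys (median 1192), 129.5 to 1019 CPM at 5d (median 775) and 313 to 786 CPM at 28d (median 594). At 5d, replicates 6, 3 and 2 were at 129.5, 185 and 238 CPM and the other 5 kidneys between 724 and 1019 CPM. All 28d kidneys were below 7 of the 8 sham kidneys. Against sham, the log2 fold change was −1.08 ± 0.42 (adjusted p = 0.530) at 5d and −1.21 ± 0.46 (adjusted p = 0.454) at 28d. Elovl6 (ENSMUSG00000041220, chromosome 3, 129532355 to 129638495, plus strand) was between 23.6 and 96.9 CPM in sham kidneys (median 49.8), 15.2 and 49.9 CPM at 5d (median 33.6) and 23.4 and 44.3 CPM at 28d (median 29.1). Its highest 28d value was level with the second lowest sham value, and the log2 fold change was −0.75 ± 0.25 (adjusted p = 0.444) at 5d and −0.85 ± 0.28 (adjusted p = 0.373) at 28d.

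Scd2 (ENSMUSG00000025203, chromosome 19, 44293674 to 44306864, plus strand), the neighbour of Scd1 and a desaturase found in many tissues, did not share this range. It was at 72.0 to 115.5 CPM in sham kidneys (median 77.8), 41.7 to 87.4 CPM at 5d (median 68.9) and 62.4 to 112 CPM at 28d (median 77.5). At 5d, 4 of 8 kidneys were below every sham kidney and the others lay within the sham range, and at 28d 4 of 6 lay within it. The log2 fold change was −0.39 ± 0.16 (adjusted p = 0.561) at 5d and −0.10 ± 0.17 (adjusted p = 0.922) at 28d. Without the 3 kidneys with high adrenal markers, of which sham replicates 2 and 6 had Scd2 at 105 and 111.5 CPM and 5d replicate 5 had the lowest value, the 5d difference was −0.20 (adjusted p = 0.868).

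Thrsp (ENSMUSG00000035686, chromosome 7, 97412938 to 97417730, minus strand), a gene of lipogenic tissues that responds to thyroid hormone, had the widest relative spread of the members at 5d. Sham kidneys ranged from 40.5 to 284 CPM (median 156), 5d kidneys from 8.66 to 155.5 CPM (median 85.6) and 28d kidneys from 28.0 to 130 CPM (median 58.6). The lowest 3 values at 5d, in replicates 6, 3 and 2, were 8.66, 17.2 and 18.3 CPM. Against sham, the log2 fold change was −1.05 ± 0.48 (adjusted p = 0.600) at 5d and −1.32 ± 0.54 (adjusted p = 0.49) at 28d.

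Pnpla3 (ENSMUSG00000041653, chromosome 15, 84167837 to 84187236, plus strand), a lipid droplet protein, had few counts, 3 to 31 per sham kidney, 2 to 15 at 5d and 0 to 11 at 28d. It reached the filter's minimum of 10 counts in 6 sham kidneys and in only 1 kidney at each time after MI, so that it entered the test through the group in which it was high. Sham kidneys were between 0.832 and 10.5 CPM (median 4.26), 5d kidneys between 0.866 and 4.41 CPM (median 1.67) and 28d kidneys between 0 and 4.47 CPM (median 1.11); the 0 counts of 28d replicate 1 allow up to 3 counts. The log2 fold change was −1.34 ± 0.46 (adjusted p = 0.444) at 5d and −1.76 ± 0.55 (adjusted p = 0.332) at 28d. With no filter on low counts, Pnpla3 was called at 5d (adjusted p = 0.0429) and at 28d (adjusted p = 0.0144). Gm49513 overlaps Pnpla3 on the same strand, from 84181914 to past the 3′ end of Pnpla3. The effect of this overlap on the counts was not tested.

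Srebf1 (ENSMUSG00000020538, chromosome 11, 60199089 to 60222581, minus strand), the regulator, was at 24.9 to 33.0 CPM in sham kidneys (median 28.0), 19.7 to 32.7 CPM at 5d (median 26.75) and 18.5 to 33.75 CPM at 28d (median 25.0). The groups overlapped, with 3 kidneys at each time below the lowest sham kidney. Against sham, the log2 fold change was −0.11 ± 0.11 (adjusted p = 0.876) at 5d and −0.19 ± 0.12 (adjusted p = 0.708) at 28d. Counts of 3′ ends do not separate the SREBP-1a and SREBP-1c transcripts, and Rai1 overlaps Srebf1 on the opposite strand by its 3′ end, with no strand setting given for the counting.

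The order of the group medians was sham, 5d, 28d for Fasn, Scd1, Thrsp, Acaca, Elovl6, Pnpla3 and Srebf1, and sham, 28d, 5d for Scd2, Acly and Me1. Neighbouring groups in these orders did not differ past the test for any member. Between 28d and 5d post-MI, 0 of 10 members were called by edgeR (0.415% of all genes were) and 1, Me1, had an unadjusted p under 0.05 (9.05% of all genes). DESeq2 and limma's voom called 0 of 10 here too. The estimated differences between the times were from −0.43 ± 0.65 for Pnpla3 to 0.29 ± 0.17 for Scd2.

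**Figure D2:**
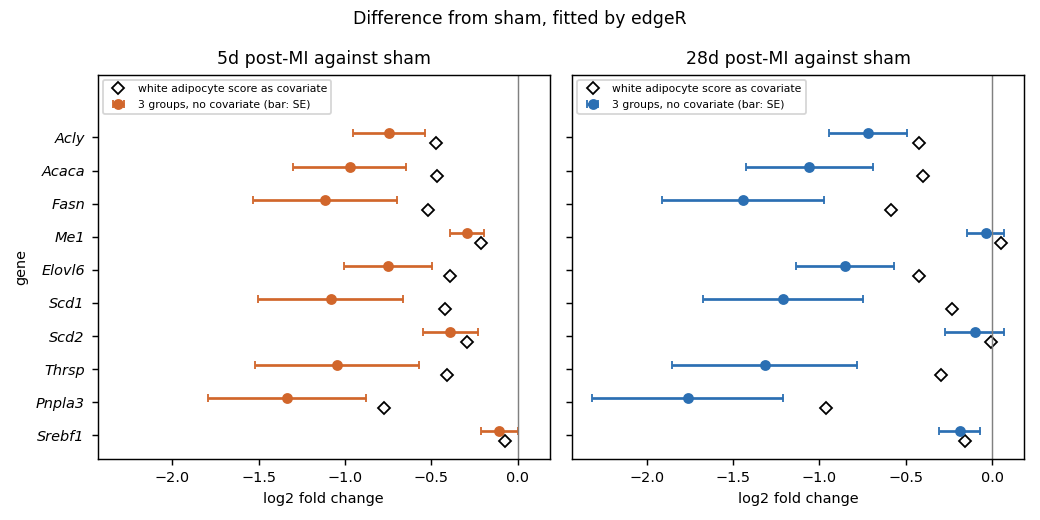
Log2 fold change (x axis) of each lipogenesis gene at 5d (left) and 28d post-MI (right) against sham; filled circles with SE bars come from the fit of the 3 groups and open diamonds from the same fit with the white adipocyte score of each kidney as a covariate. The diamonds lie nearer to 0, except for Me1 at 28d, at −0.52 instead of −1.11 for Fasn at 5d and at −0.23 instead of −1.21 for Scd1 at 28d.

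Promoter windows, from 250 bases before to 50 bases after the transcription start, are printed for Fasn, Thrsp and 1 of the starts of Srebf1. Across kidneys, after subtracting group means, Pearson's r with Fasn was 0.960 for Thrsp and 0.088 for Srebf1. Srebf1 had 46 to 111 counts per kidney, and the part of counting error in its spread was not tested. The counts were read from 3′ ends of mRNA and not from these windows. The RefSeq table (GRCm38.p6) held such windows for 8 of the 10 members, 11 windows in all because Srebf1 has 3 and Me1 has 2. Capitals mark matches, on either strand, to the NF-Y box CCAAT and the GC box GGGCGG, sites known to work beside SREBP-1 in lipogenic promoters. The windows are chr11:120824498-120824797 for Fasn, chr7:97417501-97417800 for Thrsp and chr11:60210422-60210721 for Srebf1, all printed 5′ to 3′ on the gene's own minus strand.
Fasn: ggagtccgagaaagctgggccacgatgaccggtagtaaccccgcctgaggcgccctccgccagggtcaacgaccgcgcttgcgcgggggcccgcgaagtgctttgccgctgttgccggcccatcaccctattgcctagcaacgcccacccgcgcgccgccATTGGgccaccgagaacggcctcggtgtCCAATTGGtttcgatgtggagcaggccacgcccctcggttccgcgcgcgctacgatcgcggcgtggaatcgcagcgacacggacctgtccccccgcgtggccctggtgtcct
Thrsp: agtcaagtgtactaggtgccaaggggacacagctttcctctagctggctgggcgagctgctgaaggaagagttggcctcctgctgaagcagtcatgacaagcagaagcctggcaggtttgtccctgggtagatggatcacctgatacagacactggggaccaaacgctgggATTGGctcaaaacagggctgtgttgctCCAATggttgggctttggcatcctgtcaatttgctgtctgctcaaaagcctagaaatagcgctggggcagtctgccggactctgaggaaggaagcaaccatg
Srebf1: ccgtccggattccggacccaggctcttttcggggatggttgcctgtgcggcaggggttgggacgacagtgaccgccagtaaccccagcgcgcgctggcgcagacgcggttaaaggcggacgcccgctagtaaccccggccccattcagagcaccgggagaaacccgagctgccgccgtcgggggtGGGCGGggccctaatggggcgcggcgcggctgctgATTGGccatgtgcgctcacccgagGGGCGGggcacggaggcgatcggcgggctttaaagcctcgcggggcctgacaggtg

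In the Fasn window, CCAAT matches begin 90, 62 and 59 bases before the start, the last 2 overlapping in 1 palindromic stretch, and in the Thrsp window they begin 79 and 52 bases before it. The Srebf1 window holds 1 CCAAT match 30 bases before the start and GGGCGG matches at 65 and 6 bases before it. Over the members, CCAAT was found in 7 of 11 windows, from 6 members, beside 37.4% of the 32817 windows in the table, and GGGCGG in 5 of 11 windows, from 4 members, beside 35.6%. The sterol regulatory element TCACNCCAC was in 0 of 11 windows (1.24% of all) and the E-box CACGTG in 0 of 11 (7.15% of all), which says only that these letters are not in these windows.

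Within the sham group, 7 of the members spread over a wider relative range than Me1, Scd2 and Srebf1. The highest value was 7.03 times the lowest for Fasn, 7.16 times for Scd1, 7.02 times for Thrsp, 6.41 times for Acaca, 4.11 times for Elovl6, 3.18 times for Acly and 12.6 times for the sparse Pnpla3, but 1.25 times for Me1, 1.32 times for Srebf1 and 1.60 times for Scd2. Sham replicate 5 was highest and sham replicate 8 lowest for each of those 7 genes and for Me1. Without sham replicate 8, differences from sham were larger, −1.26 for Fasn and −0.84 for Acly at 5d, and none passed (adjusted p = 0.106 for Acly and 0.353 for Fasn). The wider spread did not hold for all of the 7 after MI. At 5d Acly spanned 2.18 times, beside 2.09 times for Scd2. At 28d Acly spanned 1.76 times, Acaca 1.79 times and Elovl6 1.89 times, beside 1.79 times for Scd2 and 1.82 times for Srebf1. Fasn, Scd1 and Thrsp still spanned 2.11, 2.52 and 4.64 times at 28d. No member was called with any 1 of the 22 kidneys left out.

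Across the 22 kidneys, after subtracting group means of log2 CPM, Pearson's r with Fasn was 0.967 for Acaca, 0.960 for Thrsp, 0.937 for Scd1, 0.866 for Elovl6, 0.844 for Acly, 0.749 for Me1 and 0.679 for Pnpla3. For Scd2 it was 0.132 and for Srebf1 0.088. These are descriptions over kidneys that share a depth range and differ in their adrenal and adipocyte marker sums. The genes were selected on earlier results in which Fasn, Scd1 and Thrsp set these same kidneys apart, so the correlations are no independent support. The 8 genes outside the members with the highest r to Fasn were Tkt (0.951), Mrap (0.932), Phlda3 (0.919), Agpat2 (0.892), Fabp4 (0.885), Lipe (0.882), Prkar2b (0.870) and Pygl (0.861). Tkt codes for transketolase of the pentose phosphate pathway, which supplies NADPH, Agpat2 for an acyltransferase of triglyceride synthesis, Fabp4 for the fatty acid binding protein of adipocytes, Lipe for hormone-sensitive lipase and Pygl for glycogen phosphorylase.

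**Figure D3:**
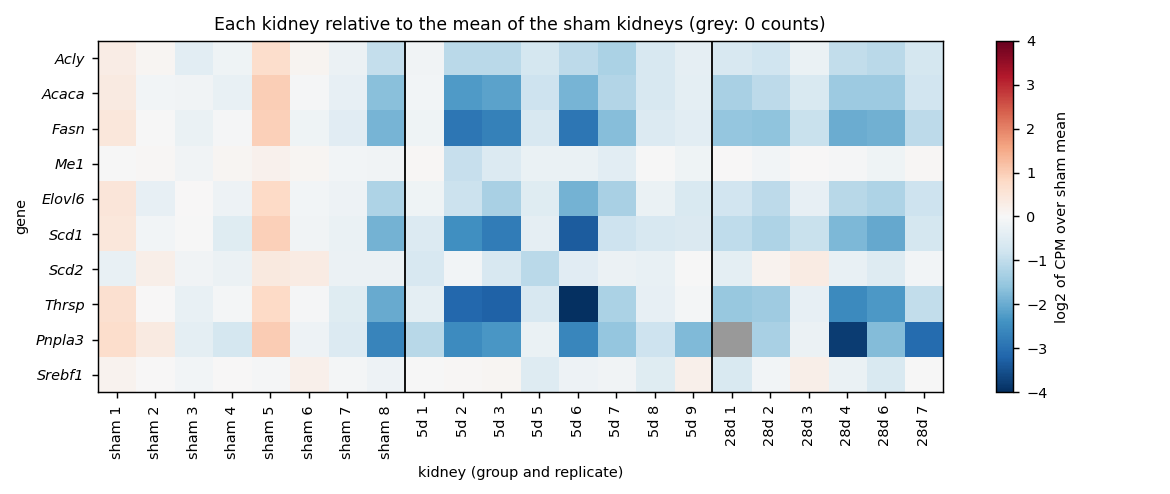
Log2 of CPM over the sham mean (colour; red above, blue below, grey for 0 counts) for each lipogenesis gene (rows) in each kidney (columns, labelled by group and replicate). All 14 MI kidneys are below the sham mean for Fasn, Scd1, Thrsp, Acaca, Acly, Elovl6 and Pnpla3. Sham replicate 8 is the lowest sham kidney for each of these genes, while the Me1, Scd2 and Srebf1 lines stay pale in most kidneys.

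White adipocyte markers varied across kidneys with several of these genes, but hardly with Scd2 and Srebf1. Of the 8 markers 7 could be tested, all with lower estimates at both times, 0 called by edgeR and 2 at 5d and 3 at 28d lower at an unadjusted p under 0.05, and their median log2 fold change was −0.44 at 5d and −0.84 at 28d. Of the 7 brown adipocyte markers 6 were tested and 0 called, with 2 at 5d and all 6 at 28d lower at an unadjusted p under 0.05 and medians of −0.66 and −2.09. Over all tested genes, 3.97% at 5d and 4.23% at 28d were lower at that threshold, and 0.0704% and 0.0235% were called. The marker lists were chosen with earlier results of these data known, and nothing is read from these shares. The r of each member with the white adipocyte score, the mean log2 CPM of 8 markers, again after subtracting group means over 22 kidneys, was 0.946 for Scd1, 0.904 for Thrsp, 0.836 for Fasn, 0.803 for Acaca, 0.719 for Elovl6, 0.594 for Acly, 0.549 for Pnpla3, 0.457 for Me1, 0.262 for Scd2 and 0.123 for Srebf1. Without the 2 kidneys farthest from the median score, 5d replicate 6 and sham replicate 5, it was still 0.924 for Scd1 and 0.799 for Fasn. The kidneys that were low in Fasn were low in these markers, at 266 CPM in sham replicate 8 and 260, 249 and 111 CPM in 5d replicates 2, 3 and 6. In 5d replicate 7, however, the marker sum was 964 CPM, the highest of its group, with Fasn at 162 CPM and Acly at 81.8 CPM, the lowest Acly value of all kidneys.

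**Figure D4:**
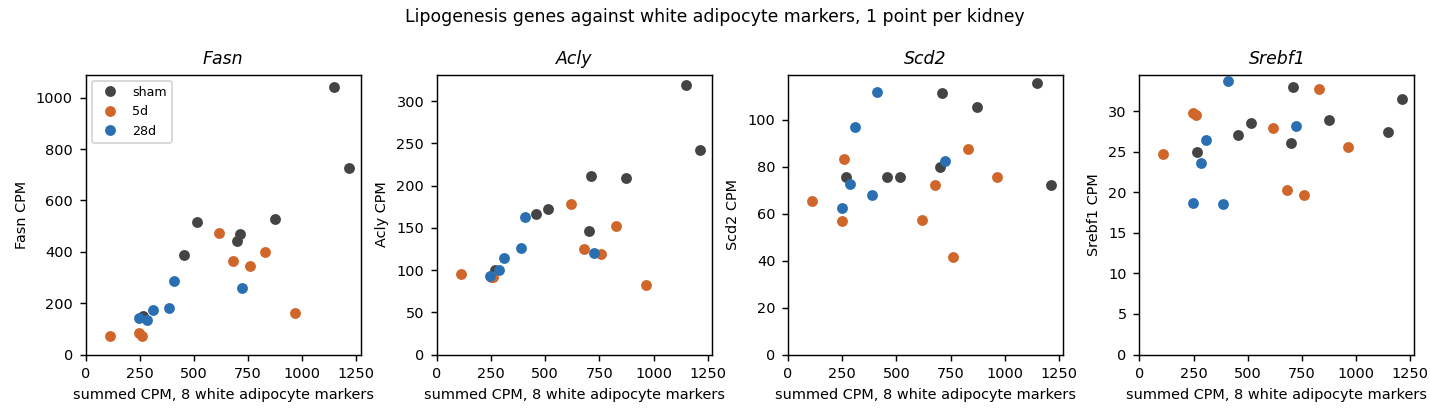
CPM of Fasn, Acly, Scd2 and Srebf1 (y axes) against the summed CPM of 8 white adipocyte markers (x axis), 1 point per kidney, coloured by group. Fasn tends to be higher in kidneys with a higher marker sum, from 71.5 CPM at a sum of 111 to 1042 CPM at a sum of 1148. Kidneys that depart from this include 5d replicate 7, at 162 CPM and a sum of 964. Likewise, 28d replicate 7 is at 258 CPM and a sum of 723, while sham replicate 4 is at 516 CPM and a sum of 515. Srebf1 stays between 18.5 and 33.75 CPM.

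With the white adipocyte score as a covariate, the members' differences from sham came closer to 0, except that of Me1 at 28d (0.05). At 5d the adjusted log2 fold change was −0.52 for Fasn, −0.42 for Scd1, −0.41 for Thrsp, −0.47 for Acaca, −0.47 for Acly, −0.39 for Elovl6 and −0.77 for Pnpla3, with adjusted p of at least 0.676 in edgeR for all members. At 28d it was −0.59 for Fasn, −0.23 for Scd1, −0.30 for Thrsp, −0.40 for Acaca, −0.42 for Acly, −0.42 for Elovl6 and −0.96 for Pnpla3. The lowest adjusted p of a member at 28d was 0.682. Since the RNA is from bulk tissue, fewer cells of a type and less RNA per cell cannot be told apart, and these fits do not tell RNA of fat apart from RNA of kidney cells. Without the 3 kidneys with high adrenal markers, Fasn differed by −1.23 at 5d and −1.47 at 28d, and Pnpla3 had too few counts for the filter. The part of the red blood cell signal in the differences was not tested.

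Around the members, 59 further genes of fatty acid and triglyceride synthesis were looked at in 4 lists, of which 55 could be tested. Scd3, Scd4, Elovl3 and Elovl4 had at most 8 counts in any kidney and were not. edgeR called 0 of the 55 in each of the 3 comparisons, and limma's voom also called 0. At an unadjusted p under 0.05, 10 were lower and 1 higher at 5d, 7 lower and 1 higher at 28d, and 4 lower and 4 higher at 28d against 5d. Over all tested genes these shares were 7.9% at 5d (3.97% lower), 8.68% at 28d (4.23% lower) and 9.05% between the times, and the shares called were 0.0704%, 0.0235% and 0.415%. The median log2 fold change of the 55 was −0.07 at 5d and −0.05 at 28d.

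**Figure D5:**
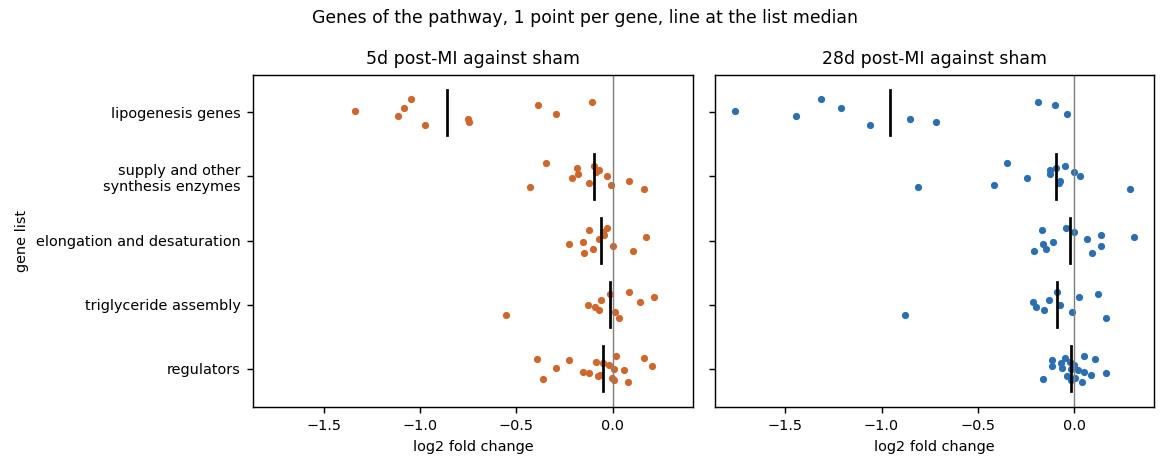
Log2 fold change (x axis) at 5d (left) and 28d post-MI (right) against sham for the 10 lipogenesis genes and the 55 tested genes of the 4 surrounding lists, 1 point per gene, with a line at each list's median. The lipogenesis genes have medians of −0.86 and −0.96, and the surrounding lists have medians between −0.10 and −0.01. The members were selected on these data, and the surrounding lists by function with earlier results of these data known.

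Of the 13 genes for substrate supply and other steps of synthesis, 11 had lower estimates at each time. Slc25a1, the carrier that brings citrate out of the mitochondrion to Acly, was at 125 ± 21.5 CPM in sham kidneys (SD, n = 8), 98.1 ± 15.4 CPM at 5d (SD, n = 8) and 97.9 ± 7.51 CPM at 28d (SD, n = 6), log2 fold changes of −0.35 ± 0.10 (adjusted p = 0.333) and −0.35 ± 0.11 (adjusted p = 0.335). With no filter it was called at both times (adjusted p = 0.00115 and 0.00307). Acacb, whose malonyl-CoA restrains fatty acid oxidation at the mitochondrion, was at 41.0 ± 14.7 CPM in sham kidneys, 30.0 ± 9.05 CPM at 5d and 23.4 ± 8.07 CPM at 28d, with a 28d difference of −0.81 ± 0.26 (adjusted p = 0.361). Idh1, the cytosolic isocitrate dehydrogenase, a source of NADPH, differed by −0.18 ± 0.06 (adjusted p = 0.425) at 5d.

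Among the 12 tested genes of elongation and desaturation, differences were small. Fads1, the delta-5 desaturase of polyunsaturated fatty acids, differed by −0.23 ± 0.08 (adjusted p = 0.444) at 5d and Hsd17b12, the ketoreductase of the elongation cycle, by −0.17 ± 0.08 (adjusted p = 0.553) at 28d. Hacd1, a dehydratase of that cycle, was the member of the lists with the largest positive difference at 28d, 0.31 ± 0.15 (adjusted p = 0.565). Elovl1, the elongase of very long chains, was at 108 ± 4.87 CPM in sham kidneys, 97.7 ± 4.57 CPM at 5d and 116 ± 13.0 CPM at 28d. Its difference between 28d and 5d, 0.24 ± 0.06, missed the threshold in edgeR (adjusted p = 0.0568) and passed it in DESeq2 (adjusted p = 0.0344). Fitted to the 5d and 28d kidneys alone, it passed in neither edgeR (adjusted p = 0.1365) nor DESeq2 (adjusted p = 0.1137).

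In triglyceride assembly, Agpat2, which adds the fatty acid that makes phosphatidic acid, had the lowest p of the 55 genes at 28d. It was at 43.1 ± 13.9 CPM in sham kidneys, 29.1 ± 8.74 CPM at 5d and 23.3 ± 2.50 CPM at 28d. The log2 fold change was −0.55 ± 0.21 (adjusted p = 0.501) at 5d and −0.88 ± 0.23 (adjusted p = 0.254) at 28d, and DESeq2 called the latter (adjusted p = 0.0182). With the white adipocyte score as a covariate the 28d difference was −0.47 (adjusted p = 0.277). Dgat2, the last enzyme of triglyceride synthesis, differed by −0.20 ± 0.09 (adjusted p = 0.555) at 28d and Gpam, the first, by −0.13 ± 0.10 (adjusted p = 0.811) at 5d.

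Of the 19 regulators, Insig1, which holds SREBP in the endoplasmic reticulum and is itself an SREBP target, was at 53.8 ± 9.81 CPM in sham kidneys, 41.6 ± 3.50 CPM at 5d and 47.9 ± 8.99 CPM at 28d. Its difference was −0.36 ± 0.10 (adjusted p = 0.289) at 5d and −0.16 ± 0.11 (adjusted p = 0.744) at 28d. Insig1 was called at 5d with no filter (adjusted p = 0.00764) and without sham replicate 8 (adjusted p = 0.0353), the sham kidney with the lowest Insig1 value, 33.3 CPM. Srebf2, the SREBP of cholesterol synthesis, differed by −0.23 ± 0.08 (adjusted p = 0.446) at 5d and −0.11 ± 0.09 (adjusted p = 0.782) at 28d.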

How the data were processed

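Kidney RNA of sham and MI mice was sequenced by MACE. Per the paper's methods, the authors used Cutadapt 4.6 for trimming and HTSeq for counting reads per gene after mapping; the methods name mm10 and the submitters' processing notes mm39 and Bowtie2, and annotation and strand are not given in the sources used here. The deposited whole-number counts of 56941 genes were used. Of 48 value columns 22 were used; the 26 left out are 24 that the authors name tpm, which are the counts scaled to 1000000 per kidney, and 2 count columns that share a name. Symbols and positions came from GENCODE M21 (GRCm38).

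Genes were kept by edgeR's filterByExpr (minimum 10 counts), normalised by TMM and fitted by edgeR 4.0.16 with the robust quasi-likelihood model over the 3 groups (R 4.3.3); tests were two-sided with Benjamini-Hochberg adjustment over all genes and a threshold of 0.05. SE is the log2 fold change over the root of F. CPM here divides counts by the kidney's effective library size, the sum over the kept genes times its TMM factor. DESeq2 1.42.0 and limma 3.58.1 were alternatives. The code was tested on simulated data. Each kidney came from its own mouse, per the methods. Members, gene lists and named genes were chosen with earlier results of these data known. Named genes were all members, the 2 genes with the lowest p per surrounding list at each time and any called gene, and the 8 genes most like Fasn. A count of 0 allows up to 3 counts, which covers counting error only.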

Additional observations from a re-analysis of the deposited data

Results flagged for a closer look

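Of 45 sets of values of 1 group, 3 held a kidney far from the others of its group, and chance alone gives about 1 in 20. The sum of white adipocyte markers was 723.4 CPM in 28d post-MI replicate 7, where the group median was 348 CPM, and the members in that kidney lay within the range of the other 28d kidneys except Scd1, which was the highest at 786 CPM, and Me1, the highest at 401 CPM. The sum of adrenal markers was 99.9 CPM in 5d post-MI replicate 5, beside a group median of 9.09 CPM. The sum of red blood cell markers was 2200.0 CPM in sham replicate 4, beside a group median of 3652 CPM. No member's values in any group were set apart in this way.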

How the results depend on the processing

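The members' differences from sham kept their sign under every alternative except Scd2 and Me1 at 28d, which were near 0. Members called were 1 at 5d and 1 at 28d with no filter on low counts (Pnpla3) and 1 at 28d in DESeq2 with only the 2 groups (Fasn, −1.44, adjusted p = 0.00829), and 0 in each comparison under the other settings, including each of the 22 kidneys left out. Surrounding genes called were 2 at 5d and 1 at 28d with no filter, 1 at 28d and 1 between the times in DESeq2, and 1 at 28d in DESeq2 with only the 2 groups (Agpat2); leaving out 1 kidney gave 0 to 1 in each comparison. Counts over all genes, at 5d, 28d and between the times, were 9, 3 and 53 as reported, 80, 94 and 160 with no filter, 36, 33 and 91 in DESeq2, 29, 70 and 89 in DESeq2 with 2 groups, 2, 31 and 26 in edgeR with 2 groups and 2, 24 and 80 with a replicate block; limma's voom gave 5 and 5 at the 2 times, the white adipocyte covariate 1 at 5d, and leaving out the 3 kidneys with high adrenal markers, a setting chosen after seeing the data like DESeq2 with 2 groups, 2 and 1. With 1 kidney left out they ranged from 1 to 38 (38 without 5d replicate 1), from 0 to 29 (29 without sham replicate 8) and from 41 to 84 (84 without 5d replicate 1). The cause of these shifts was not tested. Replicate numbers are shared between groups. The 18 same-numbered pairs had correlations from −0.127 to 0.090, and 2 of 22 kidneys were most like one of their own number. These correlations gave no sign of pairing, but they cannot exclude a batch shared by number, and the labels give no batch. With the replicate block 0 members were called in each comparison. Pnpla3 had at most 31 counts in a kidney, and the cause of its low counts was not tested.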
